A study of Mus musculus with 2 samples.

Results

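The 81 histone genes of the count table, of 31053 genes in all, were followed through cultured cells of mouse dorsal root ganglia (DRGs). They were chosen by symbol alone: every gene whose name began with Hist1h to Hist4h, H2af or H3f3, together with H1f0 and H1fx. Of these, 67 were named Hist, 13 were replacement (or variant) histone genes outside that naming, and 1, H3f3aos, was a long non-coding RNA antisense to H3f3a. Cells entered if 200 genes or more were detected and mitochondrial genes made up no more than 10% of their UMIs (unique molecular identifiers), which kept 5066 in library A and 5664 in library B. Cell_culture holds DRG cells from 2-week-old SWISS mice of both sexes, uninjured, with no transgene or treatment named, dissociated, cleared of debris on a density gradient and kept on laminin for 3 days. How many animals were pooled is not given in the sources used here, and the satellite glial cells (SGCs) and other glia were cultured together with neurons, fibroblasts and macrophages. Both libraries had the same condition, and no source says that they came from separate cultures or animals, so a p-value measures only the spread between them.

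Histones package DNA. H2A, H2B, H3 and H4 form the core around which DNA winds, and H1 binds the linker between cores. Most replication-linked histone genes lie in clusters, have no introns and are transcribed in S phase. Their mRNAs end just after a short stem-loop, bound by the stem-loop binding protein, instead of a poly(A) tail. Replacement histones are made through the cell cycle from ordinary polyadenylated mRNAs, often with introns. The libraries were primed on poly(A), so counts of a stem-loop mRNA reach the table only from molecules that the priming caught, and a level here is not the level of all its RNA. Resting SGCs divide little in the ganglion, whereas glia divide in culture.

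The stem-loop can be seen in the genes themselves. The letters GG, any 2 bases, CTTTT, any base, AG, any 2 bases and CC, in this order, were searched on the sense strand of the GENCODE M21 transcripts (mouse build GRCm38, a later annotation than the authors used), and 124 of 141767 transcripts, 0.0875%, held them. Of the longest coding transcript of each gene, 43 of 67 Hist-named genes and 1 of 13 replacement genes, H2afx, held the motif. Windows of up to 30 bases from the last exon, after the stop codon, are shown for the genes that the comparisons turn on, with the stem-loop in capitals and its coordinates. Those from Hist1h1e to H2afx were higher in dividing glia and those from Hist1h1c to Hist1h4i were lower, with the exceptions given for Hist1h1c.
Hist1h1e, chr13:23621782-23621797, minus strand: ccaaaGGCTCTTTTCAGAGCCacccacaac
Hist1h2ap, chr13:21833029-21833044, minus strand: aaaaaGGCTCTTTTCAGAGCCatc
Hist1h2ae, chr13:23570668-23570683, minus strand: acaaaGGCTCTTTTCAGAGCCattcactta
Hist1h4d, chr13:23581950-23581965, plus strand: ccaaaGGCCCTTTTCAGGGCCactaccttc
H2afx, chr9:44335240-44335255, plus strand: acaaaGGCCCTTTTAAGGGCCaccacctcc
Hist1h1c, chr13:23739512-23739527, plus strand: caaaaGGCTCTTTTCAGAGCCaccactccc
Hist3h2a, chr11:58955172-58955187, plus strand: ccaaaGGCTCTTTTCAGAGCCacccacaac
Hist3h2ba, chr11:58949349-58949364, plus strand: ccaaaGGCTCTTTTCAGAGCCaccttccaa
Hist1h4i, chr13:22040966-22040981, minus strand: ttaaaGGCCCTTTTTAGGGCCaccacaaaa
The motif did not separate the groups, but what followed it in the annotation differed between these genes. The Hist1h2ap transcript ended 3 bases after the motif. Those of Hist3h2ba, Hist1h4i, Hist1h1c and Hist3h2a ran on for 169, 330, 840 and 1643 bases and held a poly(A) signal (AATAAA or ATTAAA) in their last 50 bases. H2afx ran on for 822 bases with such a signal and Hist1h2ae for 151 with one, whereas Hist1h4d (770) and Hist1h1e (1153) had none. Among all 58797 coding transcripts, 50.2% had a signal there.

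Hist1h2bc and Hist1h1b, the most abundant Hist-named H2B and H1 genes, had no stem-loop in their annotated transcripts. Hist1h2bc (ENSMUSG00000018102, chr13:23684199-23692908, plus strand) was annotated as a spliced transcript of 1156 bases in 2 exons. It held a poly(A) signal 295 bases after its stop codon, shown in capitals with 12 bases on either side, and 441 bases before the annotated end. The model of Hist1h1b (chr13:21779883-21780625, minus strand) stopped at its stop codon, so any stem-loop beyond it lay outside the sequence searched. Its last 30 coding bases are shown with the longest run of A, 5 bases, in capitals.
Hist1h2bc: tgatgtatatatAATAAAtgtcatgtaaag
Hist1h1b: gccaagaaggctgtttccAAAAAgaagtag
On chromosome 13 lay 54 of the 67 Hist-named genes, 10 lay on chromosome 3, 2 on chromosome 11 and 1 on chromosome 6. The replacement genes were spread over 9 chromosomes, X included.

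Hist1h2bc starts 251 bases from Hist1h2ac, an H2A gene on the other strand, and the sequence between them lies upstream of both. It is shown because Hist1h2bc passed the test between dividing and resting glia, whereas Hist1h2ac, which starts at its other end, did not pass. The level of Hist1h2ac was still higher in dividing glia, as given below. The 300 bases run on the minus strand, in the direction of Hist1h2ac, at chr13:23683910-23684209 (RefSeq, GRCm38.p6), from 250 bases before to 50 after its start. Capitals mark the octamer ATGCAAAT (130 bases before that start), CCAAT boxes and their reverse ATTGG (169, 98 and 69) and a TATAAA box (32).
Hist1h2ac: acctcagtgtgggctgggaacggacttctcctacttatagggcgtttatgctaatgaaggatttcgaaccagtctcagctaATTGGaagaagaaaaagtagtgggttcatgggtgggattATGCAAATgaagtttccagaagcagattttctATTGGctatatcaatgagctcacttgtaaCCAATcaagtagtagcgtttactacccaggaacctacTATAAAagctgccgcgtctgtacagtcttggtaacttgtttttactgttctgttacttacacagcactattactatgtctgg
A promoter was matched for 71 of the 81 genes. The octamer, searched as ATTTGCAT and ATGCAAAT, was in 13 of 60 Hist-named promoters (21.7%), 1 of 11 replacement promoters and 1.75% of all 32544 promoters. CCAAT in either direction was in 51 of the 60 Hist-named promoters and 37.4% of all, and TATAAA, on the gene's strand only, in 30 of 60 and 8.28%. In all, 12 pairs of an H2A and an H2B gene had starts within 500 bases on opposite strands, and in 2 pairs both partners reached the minimum for a test.

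Histone transcripts were a small, steady part of the libraries, 0.696% of UMIs in A and 0.713% in B. The 13 replacement genes gave 85.2% of the 548286 histone UMIs and the 67 Hist-named genes 14.8%, of which H1 genes gave 8.94, H2B 2.60, H2A 2.04, H4 0.782 and H3 0.398 percentage points. The 4 core families had 61 of the 67 Hist-named genes and fewer UMIs than the 6 H1 genes. No UMI was seen for 7 genes (H2afb1, H2afb2, H2afb3, Hist2h2aa2, Hist1h4m, Hist1h2bq and Hist1h2ba), 35 had 1 to 99 and 39 had at least 100. A count of 0 says only that the gene was not detected by these reads and this mapping. In the annotation, 26 of the 67 Hist-named genes shared over 50% of their 91-base windows exactly with transcripts of other genes, and a read of that length cannot then be assigned to 1 gene. Among the genes discussed, Hist1h2ap (92.3%), Hist1h2af (66.3%), Hist2h3c2 (61.9%) and Hist2h3c1 (each window) are uncertain for that reason. H3f3a and H3f3aos overlap, and whether strand was used in counting is not given in the sources used here.

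Cells were grouped by clustering with the histone genes left out. The glia (4421 cells in A, 5028 in B) fell into 5 clusters. Clusters 0 and 1 (5467 cells) were resting, and clusters 2, 3 and 4 (3982 cells) were dividing, which means that at least 5 cell cycle genes were among their 50 leading genes. Top2a and Mki67 were not used in that rule but were not held out of the clustering, so their levels are no independent check of it. Topoisomerase Top2a stood at 23.7 and 27.2 UMIs per 1000000 UMIs (CPM) in the resting glia of libraries A and B and at 1268 and 1273 in the dividing glia. Mki67 stood at 48.1 and 51.00 CPM in resting and 804 and 788 in dividing glia, and the replication clamp Pcna, which was used, at 10.7 and 13.1 and 60.6 and 64.02. The other classes were 809 neurons, 389 fibroblasts and 83 macrophages; the sum of 8 glial markers was 4500.2 and 4358 CPM in resting glia, 3464 and 3422 in dividing glia, 551 and 550.2 in neurons and 149 and 219 in fibroblasts. The endothelial marker Cldn5 and the pericyte marker Rgs5 were at 0 in the glia. Other genes of the pericyte list, Cspg4 and Pdgfrb among them, were counted in resting glia, so absence of the whole list is not read from Rgs5. Depth differed between the classes: the median cell had 4110 and 3829 UMIs in resting glia, 6938 and 6435 in dividing glia and 29532 and 27429 in neurons. Both libraries shared 8 cell barcodes, and a doublet caller marked 2 and 3 cells, which were kept; at so few it had not worked, so that doublets were not removed.

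Hist-named genes rose in dividing glia as a sum, and replacement genes rose less. The Hist-named genes together made up 397 and 412 CPM in the resting glia of libraries A and B and 2030.5 and 2033 in the dividing glia, 5.02-fold more. A single gene, Hist1h1b, gave 1071 and 1084 CPM of that sum in dividing glia, more than all the other Hist-named genes together. The replacement genes made up 5432 and 5427 against 8718 and 8778, 1.61-fold more. Neither pair of values overlapped between the groups, and how often that holds over all genes was not counted. The sums have no test. Counted per cell instead, the ratios were 8.40 and 2.69, and dividing cells also held more UMIs; the part of cell size or depth in the result was not tested.

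**Figure D1:**
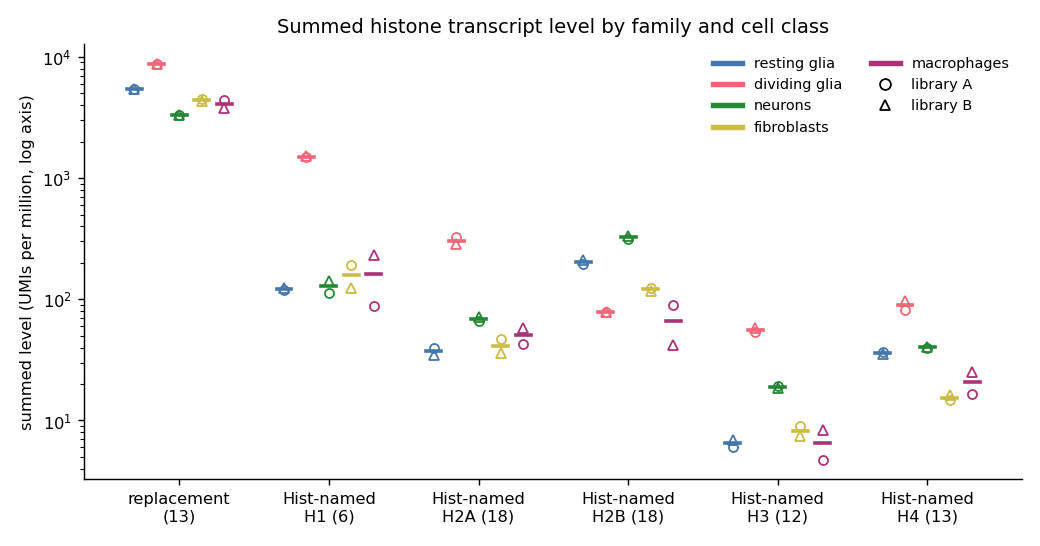
Summed level of the replacement genes and of the 5 Hist-named families, in CPM on a log axis, for 5 cell classes; circles are library A, triangles library B, bars their mean and numbers in brackets the genes per family. Dividing glia were highest in each family except H2B, where neurons were highest and dividing glia stood below resting glia.

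The families did not move alike. H1 was 12.3-fold higher in dividing than in resting glia, H3 8.68-fold, H2A 8.16-fold and H4 2.48-fold. Most of the H1 sum in dividing glia came from Hist1h1b, so the H1 ratio is not that of each H1 gene. The H2B sum was lower, 78.6 and 78.5 CPM against 196 and 211, and Hist1h2bc made up most of it in resting glia. In edgeR's quasi-likelihood test on the sums of each library and cluster, 56% of all 11434 genes passed at an adjusted p under 0.05 (28.1% higher and 27.9% lower in dividing clusters). Each cluster had the same weight in the contrast, whatever its number of cells. Of the 34 histone genes that reached 100 UMIs, 23 were higher, 6 lower and 5 did not pass. Their median log2 fold change was 1.24, beside -0.02 over all genes. By kind, 15 of 24 Hist-named genes were higher and 5 lower, and 8 of 10 replacement genes were higher and 1 lower. Hist1h2ak did not pass, although it had 104 UMIs in dividing and 2 in resting glia.

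**Figure D2:**
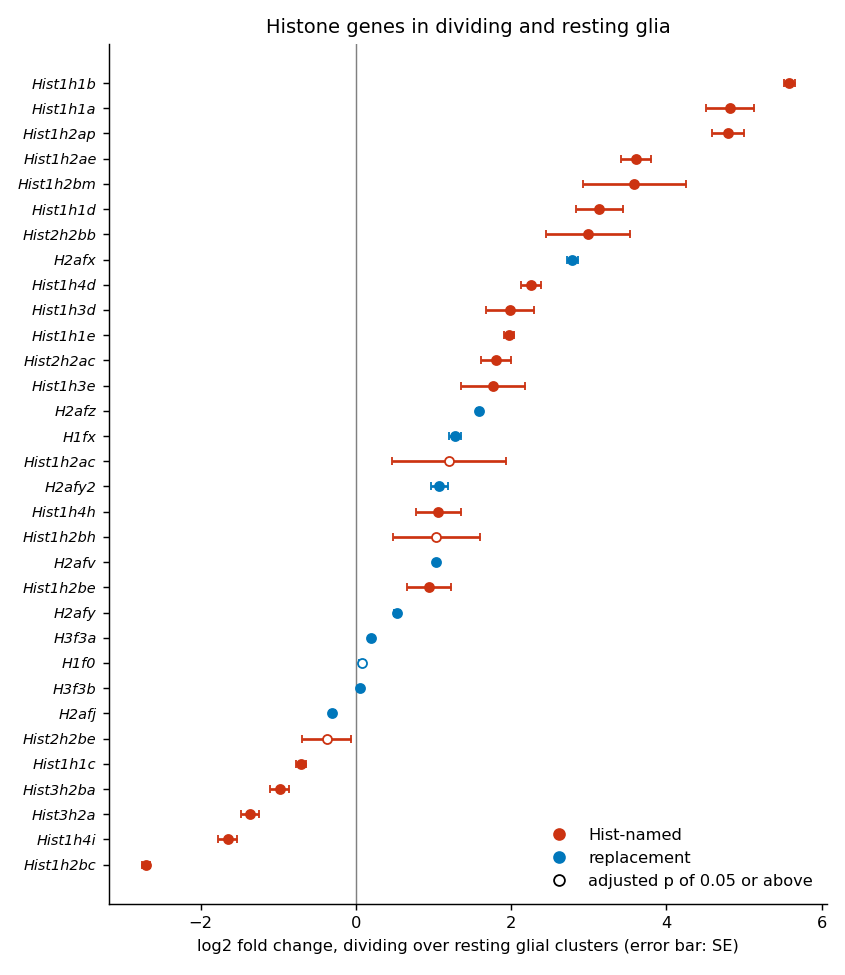
Log2 fold change of dividing over resting glial clusters with its SE for the tested histone genes, Hist-named in red and replacement in blue; open circles did not pass. Hist1h3c and Hist1h2ak, with no UMI in at least 1 cluster, are left out, and Hist1h2bc lies farthest to the left.

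Among the linker histones, Hist1h1b (H1.5) changed most and was the most abundant Hist-named gene. It stood at 10.7 and 10.9 CPM in the resting glia of libraries A and B and at 1071 and 1084 in the dividing glia (log2 fold change over the clusters 5.58, SE 0.07, adjusted p = 5.58e-232; later fold changes are log2 ± SE). After each cell was thinned to 2000 UMIs, 53.8% and 54.99% of dividing glia and 1.94% and 1.80% of resting glia had at least 1 UMI of it; in neurons, which do not divide, 6.04% and 5.95% did. The share in resting glia lay below that in neurons, so no expression is read from it; the source of these UMIs in either class was not tested. Cells under that depth were left out (166 resting glia, 15 dividing glia and 42 neurons), and without thinning the mean shares were 64.9% in dividing glia, 4.08% in resting glia and 19.9% in neurons. Hist1h1e (H1.4) was present in both groups, with 45.8 and 45.8 CPM in resting and 298 and 299 in dividing glia (1.97 ± 0.06). Hist1h1a (H1.1) and Hist1h1d (H1.3) were under 3 CPM in resting glia. Hist1h1a rose to 38.98 and 42.7 CPM (4.82 ± 0.31) and Hist1h1d rose to 38.5 and 39.6 (3.14 ± 0.30). Hist1h1c (H1.2) went the other way, from 59.6 and 65.03 CPM to 44.7 and 48.2 (-0.71, SE 0.07, adjusted p = 4.82e-21). That direction depends on how the dividing cells are drawn: the log2 fold change was 0.50 with histone genes among those that draw the clusters, and 0.067 at a coarser resolution and 0.070, both without a pass, with dividing glia defined as the 40% of cells richest in cell cycle genes.

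Of the core histones, H2A genes showed both directions. Hist1h2ap rose from 2.32 and 1.90 CPM in resting glia to 149.5 and 105 in dividing glia of libraries A and B (4.80 ± 0.20), the widest gap between libraries, 1.43-fold, among members over 20 CPM in these classes. Hist1h2ae rose from 4.02 and 3.55 to 102 and 99.2 CPM (3.61 ± 0.19). Hist2h2ac rose from 6.43 and 6.35 to 36.2 and 43.5 (1.81 ± 0.20), while Hist2h2be, which starts 239 bases away on the other strand, did not pass (-0.38 ± 0.32). Hist3h2a, on chromosome 11, fell from 24.8 and 20.9 CPM to 7.88 and 9.30 (-1.37, SE 0.11, adjusted p = 5.68e-27). For Hist1h2ap, Hist1h2ae, Hist2h2ac and Hist3h2a alike, the libraries of one group did not reach those of the other. How many of all genes show this was not counted, so it does not set these genes apart.

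Hist1h2bc, an H2B gene, had the greatest fall of any tested histone gene. It stood at 168 and 183 CPM in resting glia and 27.5 and 26.6 in dividing glia (-2.70, SE 0.05, adjusted p = 1.04e-165). It was lower in each of the 3 dividing clusters, at 23.7 and 23.6 CPM in cluster 2, 52.9 and 53.2 in cluster 3 and 15.8 and 12.97 in cluster 4, than in either resting cluster (173 and 190.1 in cluster 0 and 158 and 169 in cluster 1). After thinning, 24.1% and 26.2% of resting and 4.54% and 4.05% of dividing glia had a UMI of it, and 21.5% and 22.7% of neurons did. The partner across the promoter shown above, Hist1h2ac, stood at 1.16 and 1.32 CPM in resting and 9.71 and 9.01 in dividing glia and did not pass (1.20, SE 0.73, adjusted p = 0.153). It had 1 UMI in cluster 3 and 265 in clusters 2 and 4 together, and the test gave each cluster the same weight. Hist3h2ba, the H2B gene next to Hist3h2a, fell from 17.9 and 19.6 to 8.72 and 10.2 CPM (-0.98, SE 0.12, adjusted p = 2.82e-14).

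The H3 and H4 genes were counted less. Hist1h3c had 1 UMI in all resting glia and 493 in dividing glia, a ratio of 405 in CPM (exact 95% interval 72.3 to 16012, which covers counting error only). The H2A gene Hist1h2af, with 97 UMIs in dividing and 0 in resting glia, was under the minimum for the test; with 3 counts as the floor of the resting group it was at least 26.5-fold higher, with the limit that it shares 66.3% of its windows with other genes. Hist1h4d rose from 7.23 and 9.57 CPM to 59.5 and 73.2 (2.26 ± 0.13). Hist1h4i fell from 23.9 and 21.5 to 7.67 and 7.75 (-1.65, SE 0.13, adjusted p = 8.43e-32); with histone genes among those that draw the clusters its log2 fold change was -0.11 and did not pass.

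Tail length and direction can be set side by side, as a description with no test. Of the 15 Hist-named genes higher in dividing glia, 12 held the stem-loop, 7 of them with at least 100 bases after it, and 3 had a poly(A) signal in the last 50 bases. Of the 5 lower genes, 4 held the stem-loop, all 4 with at least 100 bases after it and with the signal. The other, Hist1h2bc, had no stem-loop and no signal in its last 50 bases. Its poly(A) signal lay 441 bases before the annotated end. The median annotated length after the stop codon was 114 bases in the higher and 742 in the lower genes. It was longest, 1658 bases, in the 4 tested Hist-named genes that did not pass. Hist1h1a, Hist1h1b and Hist2h2bb, among the higher genes, have models that end 48, 0 and 0 bases after the stop codon.

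Among the replacement histones, the H2A.Z genes rose most in CPM and H2afx rose most as a fold change. H2afz (H2A.Z.1), found at promoters and regulatory regions, stood at 698 and 675 CPM in resting and 2549 and 2551 in dividing glia (1.58, SE 0.02, adjusted p = 1.63e-262). Its paralog H2afv (H2A.Z.2) rose from 379 and 366 to 908 and 912 (1.04 ± 0.02). H2afx, whose product is phosphorylated at DNA breaks and whose mRNA can end at a stem-loop, rose from 28.5 and 26.2 to 315 and 339 (2.79, SE 0.07, adjusted p = 1.38e-136), more than the other replacement genes. The remaining H2A variants moved less in CPM. H2afy and H2afy2, the macroH2A genes, rose from 175 and 168 to 258 and 252 CPM (0.53 ± 0.03) and from 13.1 and 12.8 to 26.03 and 25.5 (1.08 ± 0.11). H2afj (H2A.J) fell from 243 and 247 to 186 and 190.3 (-0.31, SE 0.03, adjusted p = 3.83e-19).

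The H3.3 genes H3f3a and H3f3b, which encode the same protein, had the highest counts of the histone genes in resting glia and small differences. H3f3a stood at 2093 and 2084 CPM in resting and 2382 and 2390.3 in dividing glia (0.20 ± 0.01). H3f3b stood at 1626 and 1665 and 1826 and 1851 (0.05, SE 0.01, adjusted p = 6.03e-04), and did not pass with DESeq2 (log2 fold change 0.03, adjusted p = 0.178). Of the linker variants, H1fx (H1.10) rose from 27.9 and 32.3 to 87.9 and 92.5 CPM (1.28 ± 0.07). H1f0 (H1.0), known from cells that have stopped dividing, was at 148 and 150.5 in resting and 179.5 and 176 CPM in dividing glia (0.08, SE 0.04, adjusted p = 0.0522); it passed in 6 alternatives, for example at 0.29 with dividing and resting clusters each pooled.

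When glia were instead grouped by their share of UMIs from S and G2/M gene lists, which hold no histone gene of the set, high levels of the replication-linked genes were seen in cells above the 60th percentile of their library for both lists (2679 cells). Hist1h1b stood at 1532 and 1495 CPM there in libraries A and B, 40.1 and 25.2 in cells high for the S list only (1100 cells), 109 and 89.5 in those high for the G2/M list only (1100 cells) and 8.56 and 9.51 in those low for both (4570 cells). Hist1h1e and Hist1h2ae were also highest in cells high for both, at 418 and 405 CPM for Hist1h1e and 145 and 136 for Hist1h2ae. For Hist1h1e the other 3 groups lay between 32.9 and 59.5 CPM. Cells with high S genes alone held no more Hist1h1e than cells low for both lists.

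H2afz and H2afx, by contrast, were high in both groups with high G2/M genes. H2afz stood at 406 and 399.9 CPM in cells low for both lists, 761 and 751 with S genes only, 2884 and 2805 with both and 2765 and 2799.7 with G2/M genes only. The last of these groups lay just below the one before it. H2afx went from 23.3 and 20.7 and 25.4 and 31.7 to 356 and 377 and 289 and 288 CPM in the same order. H3f3a stayed between 2055 and 2477 CPM throughout.

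Hist1h2bc was lower in both groups with high S genes. It stood at 155 and 173 CPM in cells low for both lists, 58.4 and 60.2 in those with S genes only, 19.2 and 19.98 in those with both and 131 and 141 in those with G2/M genes only. The level with G2/M genes alone lay below that of cells with neither and above the other groups. Hist1h4i, at 17.8 and 17.9, 6.45 and 5.10, 9.25 and 7.55 and 28.1 and 28.4 CPM in the same order, was highest with G2/M genes alone. This grouping was chosen after seeing the data, has no test, and 318 glia in A and 402 in B lay within 10% of a cut-off.

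**Figure D3:**
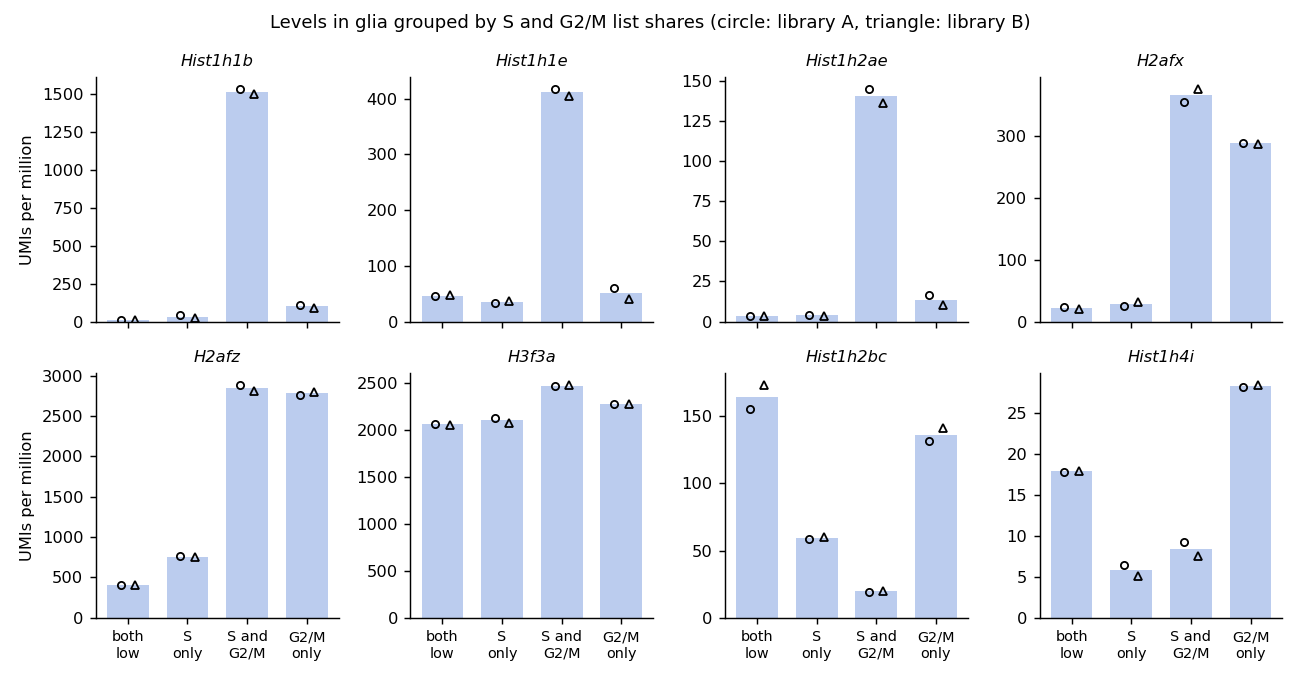
Level of 8 histone genes in CPM in glia low for both lists, high for the S list only, for both, and for the G2/M list only; bars are means of the libraries, circles library A, triangles library B. Hist1h1b, Hist1h1e and Hist1h2ae peak in cells high for both, H2afz and H2afx stay high with G2/M genes only, and Hist1h2bc is lowest in cells high for both.

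Dividing clusters were compared with each other in the test as well. Cluster 3, led by Ung, Hells and Mcm genes, had an S-list sum of 4361 and 4485 CPM, close to the 4193 and 4049.7 of cluster 2, and a G2/M sum of 3274 and 3423 against 19419.7 and 20237. It was compared with clusters 2 and 4, where 34.7% of all genes passed (19% higher and 15.7% lower in cluster 3). Of the 34 histone genes, 27 were lower in cluster 3, 2 were higher and 5 did not pass; the median log2 fold change was -3.04, beside 0.03 over all genes. Hist1h1b stood at 67.5 and 82.6 CPM in cluster 3 and 1300.4 and 1381 in cluster 4 (-4.18, SE 0.05, adjusted p = 2.81e-254). Hist1h1e (-3.10 ± 0.07), Hist1h1d (-4.50 ± 0.24) and Hist1h3d (-4.30 ± 0.29) were lower too. Hist1h2ac had 1 UMI in cluster 3 and 265 in clusters 2 and 4 together, a ratio of 63.6 (exact 95% interval 11.3 to 2523), and Hist1h3c had 3 and 490, a ratio of 39.2 (13.3 to 191). Hist1h2ak, with 0 and 104 UMIs, was at least 8.33-fold lower in cluster 3.

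Among replacement genes, H2afz stood at 897 and 926 CPM in cluster 3 against 2899 and 2911 in cluster 2 (-1.74, SE 0.02, adjusted p = 8.31e-230), and H3f3a differed by -0.25 ± 0.02. The 2 genes higher in cluster 3 were Hist1h2bc (1.49, SE 0.12, adjusted p = 2.76e-28) and H2afj (0.35 ± 0.05). This comparison rests on which cluster leans to S genes. With histone genes among those that draw the clusters, a cluster led by Hist1h1b and another led by Fxyd6, Apod and Bok leaned to S genes. Cluster 4, on the other side above, was led by the same Fxyd6, Apod and Bok. Set together against a cluster led by Pttg1 and Cenpf, they had 23 of 34 histone genes higher and 8 lower, with a median log2 fold change of 1.35. At a finer resolution, where a cluster led by Fxyd6, Apod and Bok also leaned to S genes, the median was -0.41.

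Genes that supply, load or process histones were mostly higher in dividing glia. Of a list of 30, 29 were tested: 22 were higher in dividing clusters, 2 lower and 5 did not pass, with a median log2 fold change of 0.78, beside 28.1% higher, 27.9% lower and a median of -0.02 over all genes. The dividing clusters were defined with the S and G2/M lists, which hold 7 of these genes (Anp32e, Casp8ap2, Cenpa, Chaf1b, Hjurp, Nasp and Slbp), so that the values of those 7 in part restate the definition. Of the other 22 tested genes, 15 were higher, 2 lower and 5 did not pass, with a median of 0.48. These 22 were not held out of the clustering either, so their values are not independent of the groups. The largest rises were those of the chaperone Asf1b (4.19 ± 0.12), the CAF-1 subunits Chaf1b (3.33 ± 0.10) and Chaf1a (2.79 ± 0.09), which load H3 and H4 behind the replication fork, and Hjurp (2.92 ± 0.08), the chaperone of centromeric H3. Slbp, which binds the stem-loop, rose by 2.21 ± 0.05 on the log2 scale. The histone acetyltransferase Hat1 rose by 1.99 ± 0.06, the histone chaperone Nasp by 1.41 ± 0.04 and Lsm11, a part of the U7 particle that cuts histone pre-mRNA, by 1.37 ± 0.14. The lower genes, named after their values were seen, were Lsm10, another part of that particle (-0.29, SE 0.07, adjusted p = 4.69e-05), and the phosphatase Ssu72 (-0.12, SE 0.04, adjusted p = 0.00242), which lost its pass under 5 of the alternatives. Daxx, Atrx, Cabin1, Vps72 and Srcap, which serve H3.3 and H2A.Z, did not pass. Others on the list that serve these variants, Hira, Ubn1, Ep400 and Anp32e, were higher, so the non-passing genes do not stand for that group.

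Between the 2 resting clusters the Hist-named genes showed no passing difference, but a finer clustering set some of them apart. Cluster 0, SGC-like by a list of 10 satellite glia genes (20295 and 19978 CPM against 8266 and 8253), was compared with cluster 1, where 38.1% of all genes passed (20.1% higher and 18% lower in cluster 0). None of 24 Hist-named genes passed in edgeR, where 3 had an unadjusted p under 0.05, and 0 passed in DESeq2. Hist1h2bc stood at 173 and 190.1 CPM in cluster 0 and 158 and 169 in cluster 1 (0.11, SE 0.05, adjusted p = 0.098). Of 10 replacement genes 6 were higher in cluster 0 and 2 lower, and the differences were small; DESeq2 called 2 higher and 1 lower. H2afy2 (0.46 ± 0.18), H2afy (0.41 ± 0.05), H1fx (0.39 ± 0.12), H2afv (0.21 ± 0.04) and H3f3a (0.09 ± 0.02) were higher. H3f3b (-0.26 ± 0.02) and H2afx (-0.29 ± 0.12) were lower, H2afx with an adjusted p of 0.0471. In the finer clustering described next, H2afv stood at 246 and 244 CPM in the SGC-like cluster of 2713 cells. It stood at 339 and 321 CPM in that of 1937 cells. H1fx and H2afz were also lower in the SGC-like cluster there, and H2afv, H1fx and H2afz were highest in the cluster of 762 cells. H2afz, the remaining gene called higher in cluster 0, stood at 296 and 300 CPM in the SGC-like cluster. It stood at 645 and 636 CPM in the cluster of 1937 cells and 1980 and 1894 in that of 762, the reverse of its call. H2afy2, H2afy, H3f3a, H3f3b and H2afx kept their direction between the clusters of 2713 and 1937 cells. The H3f3a to H3f3b ratio was 1.40 and 1.37 in cluster 0 and 1.09 and 1.07 in cluster 1.

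At resolution 0.3 the resting glia fell into 3 clusters, and 1 of them, of 762 cells, was led by Hist1h2bc and Hist1h4i, with Hist1h1c among its 10 leading genes. Hist1h2bc stood at 320.3 and 319.7 CPM there in libraries A and B, against 124 and 148 in the resting cluster of 2713 cells and 163 and 172 in that of 1937. Hist1h4i stood at 64.8 and 53.9 CPM there, against 10.3 and 10.6 and against 24.6 and 23.0. Hist1h1c stood at 112 and 129.6 CPM there, against 41.5 and 49.9 and against 63.1 and 57.8. All 3 were highest in this cluster in both libraries, whereas Hist1h1e, at 42.1 and 40.4 CPM, was not. The late cell cycle genes Pttg1 and Ccnb2 were also among its 10 leading genes, with Ccnb2 at 261 and 247 CPM against 4.17 and 6.69 in the largest cluster, and Top2a was at 83.2 and 80.3 CPM against 7.43 and 7.89. It counted as resting because 2 cell cycle genes were among its 50 leading genes. These levels describe the cluster, were looked at after seeing the data and have no test.

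Neurons differed from resting glia in which histone genes were high. Neurons do not divide, and 82.5% of all 12905 genes passed in the comparison (40.8% higher and 41.7% lower in neurons). Of 39 histone genes tested, 17 were higher, 9 lower and 13 did not pass, with a median log2 fold change of 0.24 beside -0.03 over all genes. The largest rise was that of Hist3h2ba, an H2B gene, which stood at 178 and 180.4 CPM in neurons, 17.9 and 19.6 in resting glia, 2.83 and 0.415 in fibroblasts and 4.75 and 4.17 in macrophages (3.31, SE 0.07, adjusted p = 2.88e-31 against resting glia). Its neighbour Hist3h2a stood at 46.4 and 52.4 CPM in neurons (1.16 ± 0.09). The near-identical H3 genes Hist2h3c2 (2.98 ± 0.26) and Hist2h3c1 (2.48 ± 0.33) were higher as well, at 8.69 and 10.4 and 6.03 and 4.62 CPM.

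Hist1h1b (1.70 ± 0.19) and Hist1h2ap (2.22 ± 0.22) were also higher in neurons than in resting glia, with Hist1h1b at 31.9 and 36.4 CPM. Top2a was 30.2 and 37.9 CPM there, and the glial marker sum 551 and 550.2 CPM; the part of RNA from dividing glia in this was not tested. Hist1h2bc was at 129.7 and 140.2 CPM in neurons (-0.33 ± 0.05), and did not pass with DESeq2 (-0.21, adjusted p = 0.412). Lower in neurons were H3f3a, at 536 and 561 CPM (-1.88, SE 0.05, adjusted p = 5.17e-28), H1f0 (-1.02 ± 0.05), H2afv (-1.02 ± 0.07) and Hist2h2ac (-1.45 ± 0.24). Hist1h2bh had 3 UMIs in neurons and 23 in resting glia, a ratio of 6.81 in favour of glia (exact 95% interval 2.06 to 35.4). H3f3b fell less than H3f3a, to 1126 and 1087 CPM (-0.52 ± 0.05), so that the H3f3a to H3f3b ratio was 0.476 and 0.516 in neurons, 1.29 and 1.25 in resting glia, 1.30 and 1.29 in dividing glia, 1.13 and 1.20 in fibroblasts and 0.787 and 0.813 in macrophages.

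**Figure D4:**
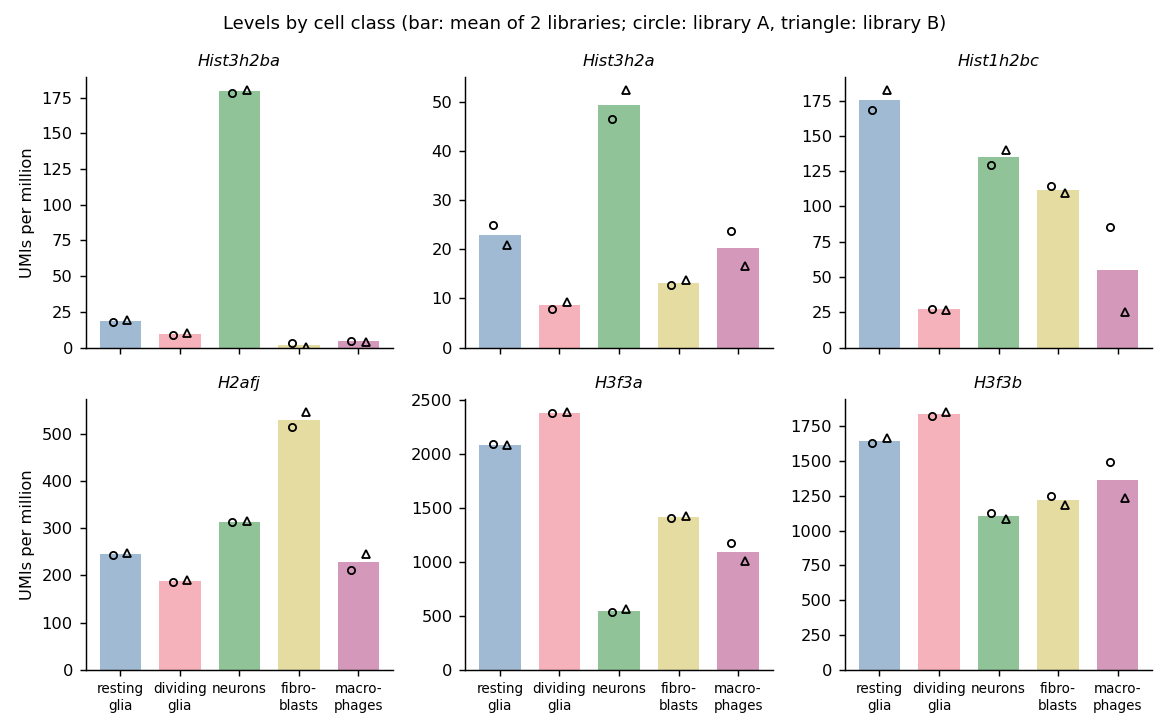
Level of 6 histone genes in CPM in 5 cell classes; bars are means of the libraries, circles library A and triangles library B. Hist3h2ba and Hist3h2a are highest in neurons, H2afj in fibroblasts, Hist1h2bc in resting glia, and H3f3a is lowest in neurons.

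Fibroblasts stood out by H2afj. It was at 515 and 546 CPM in fibroblasts against 243 and 247 in resting glia and 312 and 315 in neurons (1.40, SE 0.06, adjusted p = 1.41e-20 against resting glia). Of all genes 53.7% passed in this comparison (26.9% higher and 26.9% lower), and of 39 histone genes 11 were higher, 10 lower and 18 did not pass (11 higher and 6 lower with DESeq2), with a median log2 fold change of -0.08 beside -0.06. Hist1h1b (3.31 ± 0.22), Hist1h2ap (3.02 ± 0.31), Hist1h1a (2.54 ± 0.52) and Hist2h3c1 (1.69 ± 0.63) were higher; Hist1h1b differed between the libraries, at 117 and 61.9 CPM, and Top2a differed with it, at 117 and 47.8 CPM; the part of dividing cells in this was not tested. Hist1h3c had 5 UMIs in fibroblasts and 1 in resting glia (ratio 25.8, exact 95% interval 2.88 to 1218). Lower were Hist3h2ba (-3.31 ± 0.40), Hist1h4i (-1.75 ± 0.27), H1fx (-1.68 ± 0.22), Hist1h1c (-0.95 ± 0.17) and H1f0 (-0.90 ± 0.09). For Hist3h2ba, 6 and 1 UMIs were counted in fibroblasts, and library B alone gave a log2 fold change of -5.00.

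The 83 macrophages gave few UMIs, and their libraries differed more. Of all genes 29.4% passed against resting glia (14.5% higher and 14.9% lower), and 4 of 39 histone genes were higher, 7 lower and 28 did not pass; the median log2 fold change was -0.17, as over all genes. DESeq2 called 7 higher and 6 lower, with a median of 0.18. Hist1h1b (3.52 ± 0.39), Hist1h2ap (2.72 ± 0.68), H2afx (1.10 ± 0.31) and H2afz (0.78 ± 0.08) were higher. Hist1h1b was at 38.03 and 152 CPM, and library A alone gave 2.07; Top2a was at 114 and 119 CPM, and its part was not tested. Hist1h2bc had 36 UMIs in library A and 12 in library B (-1.39 ± 0.23), with -2.57 from library B alone. Hist1h1c (-1.58 ± 0.41), H1f0 (-1.10 ± 0.20), Hist1h4i (-2.02 ± 0.61) and Hist3h2ba (-1.74 ± 0.65) were lower, Hist1h4i with 4 UMIs in library A and 0 in library B and Hist3h2ba with 2 in each. The other 2 lower genes were replacement genes.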

How the data were processed

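The authors prepared both libraries with the 10x 3′ v3 kit from poly(A)-primed cDNA. According to the labels, the authors' reads were processed with Cell Ranger 3.0.2 on mm10, and the deposited matrices hold raw UMI counts per gene and barcode. Libraries A and B held 40355401 and 38945848 UMIs in 5175 and 5773 barcodes, with 5270 and 4825.5 UMIs in the median kept cell. Cells with at least 200 genes and no more than 10% mitochondrial UMIs were clustered in Seurat 5.3.0 (2000 variable genes with histone genes held out, 20 dimensions, resolution 0.18 for glia). Counts were summed per library and cluster (or class). They were tested with edgeR 4.0.16's quasi-likelihood test (R 4.3.3, TMM) with library as a block, over all genes with at least 100 UMIs in the fit, and p-values were adjusted by Benjamini-Hochberg. A gene was called at an adjusted p under 0.05, two-sided. The block pairs sums of the same library, so that the pairing comes from the design.

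The 81 genes, the 30 genes of the supply list, the marker lists and the tests were chosen with earlier results of these data known. Genes named were the 12 Hist-named and 12 replacement genes with the highest mean CPM over the glial clusters, up to 5 passing histone genes each way per comparison by fold change, up to 8 passing supply genes, and Top2a, Mki67 and Pcna. Others (genes that did not pass, partners and low counts) were named after their values were seen. Alternatives were DESeq2 1.42.0, RLE scaling, other filters, no block, other clusterings, cell limits and definitions of dividing cells. Stem-loops and windows came from GENCODE M21 transcripts, promoters from RefSeq; whether introns were counted is not given in the sources used here. UMI intervals are exact at 95% and cover counting error only. Levels are 3′ UMI counts, for which no length scaling applies, and capture can differ between genes.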

Additional observations from a re-analysis of the deposited data

How the results depend on the processing

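Of 775 values of named genes under an alternative, 734 kept direction and side of the threshold, 20 lost the pass, 6 gained one, 11 turned direction and 4, each without a test, moved. In dividing against resting glia, Hist1h1c turned to 0.067 (resolution 0.1), 0.50 (histone genes not held out of the clustering) and 0.070 (the 40% of cells richest in cell cycle genes). In the comparison of cluster 3 with the other dividing clusters, not holding out the histone genes put other clusters in its place. Among them was that led by Fxyd6, Apod and Bok, and 23 histone genes were higher and 8 lower. Hist1h1b was then at 5.38, Hist1h1d at 3.81, Hist1h1e at 3.68 and Hist1h3d at 2.40. Hist1h2bc was at -3.35, H2afj at -0.035, H2afz at 0.20 and H3f3a at 0.089. This comparison was not run at resolution 0.1 or at 5% mitochondrial UMIs, where 1 dividing cluster was left. In cluster 0 against cluster 1, DESeq2 called 2 higher and 1 lower, and filterByExpr and the fit with no replicate block called 1 lower. DESeq2 called 6 lower in fibroblasts and 7 higher in macrophages. Leaving out the replicate block changed no call in dividing glia, cluster 3 or fibroblasts, 1 in cluster 0 (H2afx), 3 in neurons (Hist1h1d, Hist1h4d and Hist1h2ac) and 1 in macrophages (Hist1h2ap).

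RLE scaling moved the median log2 fold change of all genes in neurons from -0.03 to 0.088. Fits with 1 library have no test; the values that moved in them were Hist3h2ba in fibroblasts at -5.00 (without replicate A), and in macrophages Hist1h1b at 2.07 (without B), Hist1h2bc at -2.57 and Hist1h4i at -7.34 (both without A), the last with 0 UMIs in the remaining library.

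Summed levels moved with the limit or the scale. At 5% mitochondrial UMIs the Hist-named sum was 455 CPM in resting and 2453 in dividing glia, and the replacement sum 5726 in resting glia, 9887 in dividing glia and 3284 in neurons. As the median over cells, the Hist-named sum was 269 in resting glia, 1214 in dividing glia, 484 in neurons, 165 in fibroblasts and 108 in macrophages, and the replacement sum was 5079, 8612, 3082, 4189 and 3672 in the same order. Shares of cells with a UMI at 1000 UMIs and without thinning were, for Hist1h1b, 1.22% and 4.08% in resting glia, 45.2% and 64.9% in dividing glia and 3.78% and 19.9% in neurons. For Hist1h2bc they were 14.2% and 39.7%, 2.13% and 12.9%, and 12.4% and 72.9% in the same order. With 83 macrophages and 389 fibroblasts, genes of low count could not be resolved there.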
